A study of Mus musculus with 12 samples.

Results

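The 9 genes described here, 8 transcription factors of the ventral forebrain and a long noncoding RNA of a Dlx locus, were followed in Pdgfra/GFP+ cells sorted from the developing brain and spinal cord. They were chosen by name, by a rule that uses no measured value, though earlier results of these data were known. They are the Dlx group (Dlx1, Dlx2, Dlx5, Dlx6 and the noncoding transcript Dlx6os1), the progenitor factor Gsx2, and the medial ganglionic eminence factors Nkx2-1, Lhx6 and Lhx8. The 9 symbols matched 10 of the 47072 rows of the deposited gene table. The additional row is an annotated RNA fragment also named Dlx6os1 (ENSMUSG00000098326), which was at 0 in all 12 libraries and is not described further. All 9 genes passed the filter on low values, but 6 of them passed only through the E13.5 brain libraries.

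Total RNA-seq was carried out on cells sorted by fluorescence-activated cell sorting from Pdgfra-H2BGFP mice, a knock-in line whose Pdgfra locus drives a nuclear histone-GFP fusion; Pdgfra encodes a receptor used to mark oligodendrocyte precursor cells (OPCs). The 12 libraries form 4 groups of 3: embryonic (E13.5) brain, embryonic spinal cord, postnatal (P7, day 7 after birth) brain and postnatal spinal cord. All animals were heterozygous for the knock-in allele on a C57BL/6NJ background per the methods of the study, so that every group carried it. The brain tissue was forebrain, each library came from a pool of animals of both sexes, and the GFP protein outlasts Pdgfra mRNA in cells that begin to differentiate. Papain was used to dissociate only the postnatal tissue, the embryonic tissue being dispersed by pipetting, so age and dissociation cannot be told apart. In sorted bulk samples, fewer cells of a type and less RNA per cell cannot be told apart either.

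The ventral telencephalon, or subpallium, forms the ganglionic eminences, swellings of dividing cells that give rise to the GABAergic neurons of the striatum and pallidum, to the interneurons that migrate into the cortex, and to the earliest OPCs of the forebrain. Gsx2 acts in the dividing cells of the lateral eminence. Dlx1 and Dlx2 follow as cells leave the ventricular zone and turn on Dlx5 and Dlx6, and the loss of Dlx1 and Dlx2 is known to shift ventral progenitors from neurons towards oligodendrocytes. Nkx2-1 gives the medial eminence its identity, and its targets Lhx6 and Lhx8 act in interneurons and in cholinergic and pallidal neurons, respectively. Homeodomain proteins such as these bind short A- and T-rich DNA motifs.

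The Dlx genes lie in pairs that are transcribed towards each other. On the mm10 build, Dlx1 (ENSMUSG00000041911, chromosome 2, 71528113 to 71533981, plus strand) is 9426 bases from Dlx2 (ENSMUSG00000023391, chromosome 2, 71543408 to 71546754, minus strand). Dlx6 (ENSMUSG00000029754, chromosome 6, 6863334 to 6868568, plus strand) lies within the span of the antisense Dlx6os1 (ENSMUSG00000090063, chromosome 6, 6820189 to 6871592, minus strand) without sharing exon bases with it, and 9236 bases from Dlx5 (ENSMUSG00000029755, chromosome 6, 6877805 to 6882085, minus strand). Gsx2 (ENSMUSG00000035946, chromosome 5, 75075601 to 75077893, plus strand) is 74398 bases from Pdgfra, the locus that carries the knock-in. Nkx2-1 (ENSMUSG00000001496, chromosome 12, 56531958 to 56536908), Lhx6 (ENSMUSG00000026890, chromosome 2, 36081953 to 36105408) and Lhx8 (ENSMUSG00000096225, chromosome 3, 154306294 to 154330659) are all on the minus strand. Dlx1 shares 335 exon bases (6.21% of its exons) with its antisense transcript Dlx1as, and Dlx6 shares 104 bases with Dlx6os2. Whether the authors counted reads by strand is not stated, so part of the Dlx1 and Dlx6 reads may belong to the opposite strand.

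Promoter sequence from RefSeq on GRCm38.p6, the same build, was found for 7 of the 9 symbols. The 250 bases before the start site are shown for 4 genes, Dlx6os1 because it had the highest level of all members, Dlx2 as a protein-coding Dlx gene, Gsx2 because it kept the largest share of its level at P7, and Lhx6 as a medial eminence factor. Motifs found by a search of both strands are in capitals: TAATTA, a core bound by many homeodomain proteins, CAGCTG, an E-box, and TATAAA, the TATA box. The core CAAGTG bound by NKX2-1 was also searched.
Dlx6os1, chr6:6869534-6869783, minus strand: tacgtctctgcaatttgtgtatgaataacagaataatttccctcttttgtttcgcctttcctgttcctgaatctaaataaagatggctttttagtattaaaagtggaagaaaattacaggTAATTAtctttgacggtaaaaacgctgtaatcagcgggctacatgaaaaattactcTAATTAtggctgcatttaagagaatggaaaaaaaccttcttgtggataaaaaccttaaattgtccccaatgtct
Dlx2, chr2:71546755-71547004, minus strand: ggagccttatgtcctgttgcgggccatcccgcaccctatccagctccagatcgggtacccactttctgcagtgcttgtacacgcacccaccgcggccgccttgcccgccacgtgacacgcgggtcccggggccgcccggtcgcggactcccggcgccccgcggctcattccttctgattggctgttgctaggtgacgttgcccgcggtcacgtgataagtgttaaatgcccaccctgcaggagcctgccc
Gsx2, chr5:75075351-75075600, plus strand: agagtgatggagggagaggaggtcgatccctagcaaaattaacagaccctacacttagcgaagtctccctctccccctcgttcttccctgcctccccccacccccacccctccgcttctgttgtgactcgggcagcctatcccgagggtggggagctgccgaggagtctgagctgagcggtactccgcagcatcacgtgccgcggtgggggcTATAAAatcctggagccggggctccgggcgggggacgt
Lhx6, chr2:36105409-36105658, minus strand: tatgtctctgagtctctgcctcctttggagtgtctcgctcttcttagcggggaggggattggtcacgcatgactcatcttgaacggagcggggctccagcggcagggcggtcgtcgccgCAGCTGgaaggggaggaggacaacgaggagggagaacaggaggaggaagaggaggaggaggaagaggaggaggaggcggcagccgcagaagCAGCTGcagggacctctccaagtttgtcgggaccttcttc
The Dlx6os1 window held 2 TAATTA matches, beginning 130 and 74 bases before the start, where 4.84% of all 32851 promoters held at least 1. This window lies in an exon of a longer Dlx6os1 transcript and had a GC content of 33.2%, against a median of 52.4% over all promoters. A second Dlx6os1 start site, at 6861683, had 1 TAATTA and 2 TATAAA matches in its window, which is not shown. The Lhx6 window held 2 CAGCTG matches, 131 and 40 bases before the start, a motif present in 13% of promoters. The windows of the other Lhx6 start sites, at 36104533 and 36104060, held none of the 4 motifs and are not shown. The Gsx2 window held TATAAA 38 bases before the start, as 12.4% of promoters did somewhere in the window. The Dlx2 window held none of the 4 motifs, and CAAGTG, found in 11.6% of promoters, was in none of the windows read for the members.

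Expression is given as counts per M reads (CPM), for which the authors divided each gene's reads by a rescaled library size. Whole reads could be recovered for every value, and libraries held 12566345 to 38790312 of them. A count of 3 reads corresponds to 0.079 to 0.179 CPM in 11 libraries and to 0.506 CPM in E13.5 spinal cord replicate 3, in which protein-coding genes held 40.9% of reads against 82.4% to 91.1% elsewhere. The tests of region at E13.5 and of age in spinal cord, and the summed-read ratios, were therefore repeated without it. Member values that moved by more than 1.5 times, or lost or gained a call, are given beside the results. In P7 brain and P7 spinal cord, replicates 1 and 2 were closer to each other than to replicate 3 (SD of log2 ratios 0.085 and 0.091 against 0.244 to 0.254), though not within sampling noise. Nr2e1, a nuclear receptor of forebrain neural stem cells, was at 12.8 to 17.2 CPM in E13.5 brain and at 0 in E13.5 spinal cord. Pdgfra was present in all libraries, at 341 to 787 CPM at E13.5 and 2014 to 3402 CPM at P7.

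Dlx6os1 and Dlx1 were the most abundant of the 9 in E13.5 brain. Dlx6os1, a noncoding RNA transcribed antisense through Dlx6, had 146, 189 and 123 CPM in the 3 E13.5 brain libraries. In E13.5 spinal cord it had 0.18, 0.089 and 0 CPM, which is 5 reads in all against 9679 in brain. All brain libraries thus stood far above all spinal cord libraries.

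Dlx1, which drives the differentiation and migration of GABAergic precursors, had 59.2, 79.1 and 50.4 CPM in E13.5 brain and 0.24, 0.22 and 0.51 CPM in E13.5 spinal cord. Its partner Dlx2 had 12.3, 19.1 and 11.9 CPM in brain and 0.06, 0.089 and 0.17 CPM in spinal cord. Dlx6 had 6.75, 9.49 and 6.92 CPM in brain, and a single read in the spinal cord libraries together. Dlx5 was the lowest of the group, with 3.80, 4.26 and 3.43 CPM in brain and 0, 0.18 and 0.17 CPM in spinal cord. Dlx1as, the transcript antisense to Dlx1, had 21.9, 30.4 and 25.8 CPM in brain and was at 0 in all E13.5 spinal cord libraries, while Dlx3 and Dlx4, which act outside the forebrain, were too low to be tested in any group.

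The factors of the medial eminence were also present in E13.5 brain. Lhx6, which directs the migration of medial eminence interneurons, had 23.2, 34.8 and 16.2 CPM in brain. In E13.5 spinal cord it had 0.06, 0 and 0.67 CPM, and 4 of these 5 reads were in replicate 3. Nkx2-1, the upstream regulator of Lhx6, had 11.2, 18.2 and 15.7 CPM in brain and no read in any spinal cord library of either age, where 3 reads over a group would give 0.066 CPM at E13.5 and 0.030 CPM at P7. Lhx8, needed for cholinergic neurons of the basal forebrain, had 7.03, 7.60 and 8.85 CPM in brain and 3 reads in spinal cord, all in replicate 2.

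Gsx2 had the most E13.5 spinal cord reads of the 9, with 7, 11 and 2 in the 3 libraries. It had 3.18, 6.85 and 9.01 CPM in E13.5 brain and 0.42, 0.49 and 0.34 CPM in E13.5 spinal cord, and the value of replicate 3 is under that of 3 reads in that library. The spread in brain was wide, with replicate 3 nearly 3-fold above replicate 1. Of the 9 members, 7 were highest in E13.5 brain replicate 2, and Gsx2 and Lhx8 were highest in replicate 3.

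**Figure D1:**
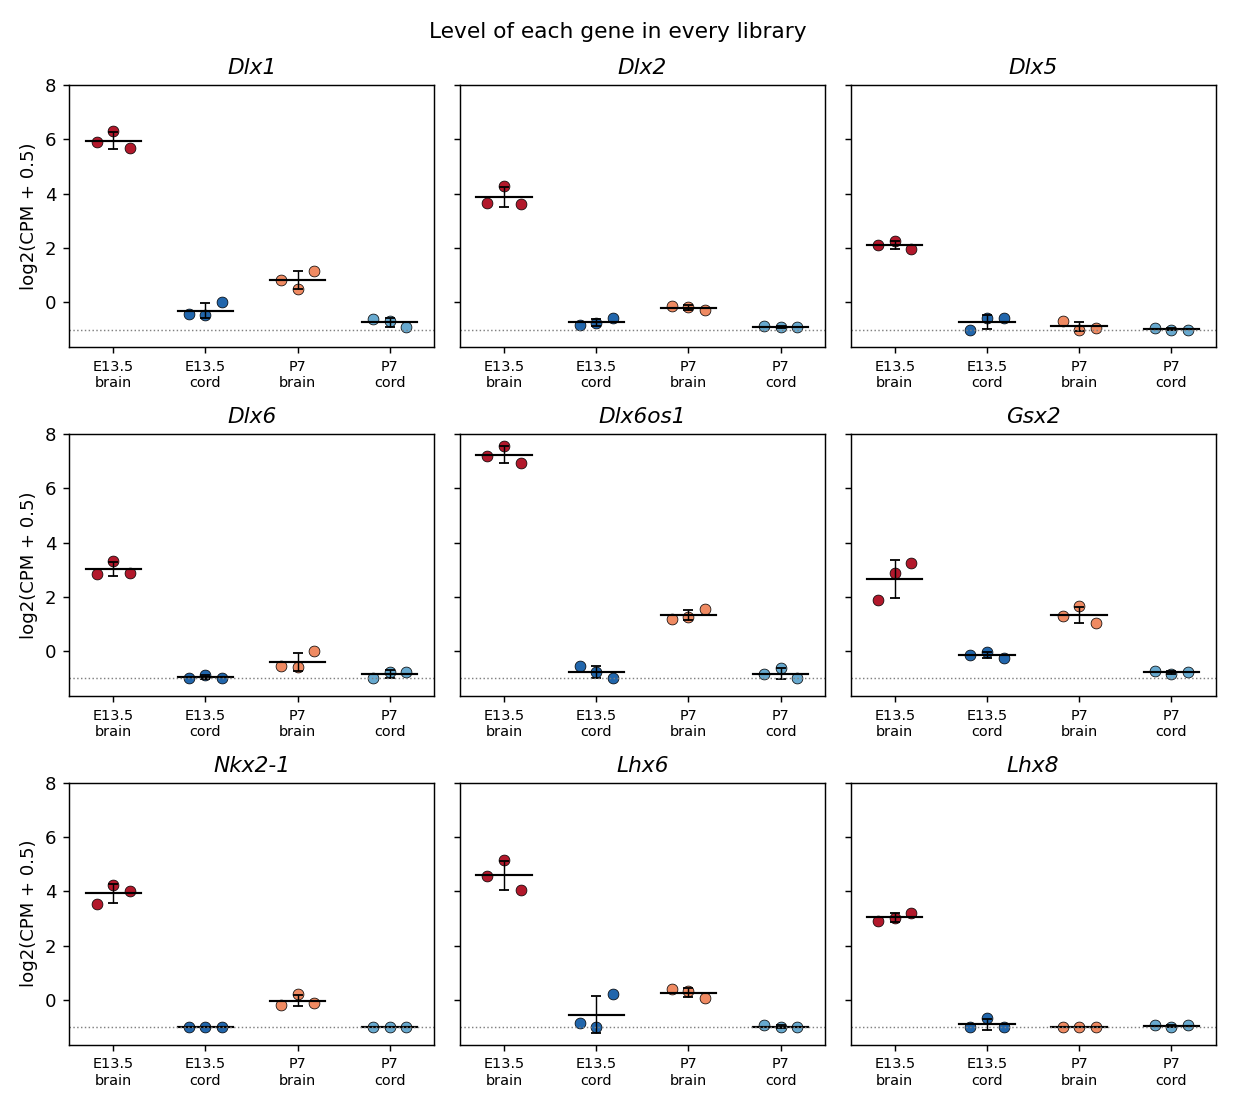
Level of each of the 9 genes as log2(CPM + 0.5) in the 12 libraries, with the mean (bar) and SD (whiskers) of the 3 libraries of each group, and a dotted line at 0 CPM. E13.5 brain libraries stand above all others for every gene, and the P7 brain libraries of Gsx2, at 1.56 to 2.65 CPM, lie nearest to their E13.5 values.

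Compared per kilobase (kb) of exon, so that genes of different length can be set side by side, Dlx6os1 was highest in E13.5 brain at 29.5 ± 6.53 CPM per kb (SD, n = 3), followed by Dlx1 at 11.7 ± 2.73. Nkx2-1 (5.28 ± 1.25), Lhx6 (5.15 ± 1.96), Dlx2 (5.05 ± 1.41), Gsx2 (3.81 ± 1.77), Dlx6 (3.25 ± 0.65) and Lhx8 (3.09 ± 0.37) followed, and neighbours in this order overlapped among the libraries. Dlx5 was lowest at 1.69 ± 0.18 CPM per kb, below all libraries of Lhx8. At P7 the order in brain was headed by Gsx2, at 1.24 ± 0.33 CPM per kb, with no overlap with Dlx6os1 at 0.393 ± 0.068. Dlx1 came next at 0.241 ± 0.079, then Nkx2-1, Lhx6, Dlx2 and Dlx6 between 0.119 and 0.173 CPM per kb, overlapping among themselves. Dlx5 was at 0.022 ± 0.028 CPM per kb, and Lhx8 had no read.

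**Figure D2:**
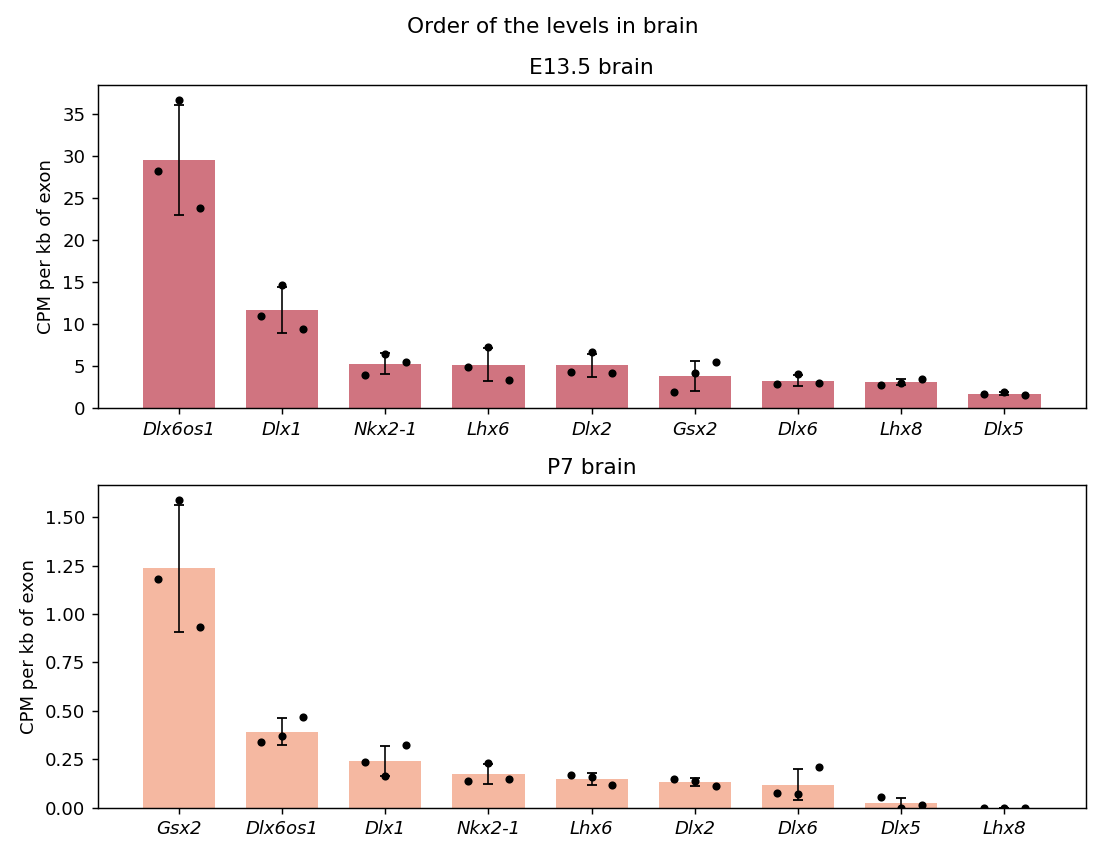
CPM per kb of exon in E13.5 brain (top) and P7 brain (bottom), ordered by level within each age; bars are means, whiskers SD and points the 3 libraries, and the vertical scales differ. Dlx6os1 leads at E13.5 with 29.5 CPM per kb and Gsx2 at P7 with 1.24 CPM per kb.

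The comparison of brain with spinal cord at E13.5 asked how far the regional identity of the sorted cells differed at the embryonic stage. All 9 genes were called higher in brain, that is, with a Benjamini-Hochberg adjusted p under 0.05 over the 18319 genes tested in limma and a more than 2-fold difference. Over all tested genes, 3.53% were called higher in brain, and since 6 members were kept by the filter only through E13.5 brain, the count carries no weight beyond the values themselves. Brain and spinal cord libraries did not overlap for any of the 9, as for 20.5% of all tested genes in this direction.

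On the log2(CPM + 0.5) scale, which understates differences from values near 0, the difference in the Dlx group was 8.01 ± 0.20 (SE) for Dlx6os1 (adjusted p = 1.38e-10), 6.26 ± 0.23 for Dlx1 (1.95e-09) and 4.59 ± 0.18 for Dlx2 (4.95e-09). It was 3.98 ± 0.20 for Dlx6 (3.09e-08) and 2.82 ± 0.17 for Dlx5 (1.49e-07). Among the medial eminence factors it was 5.13 ± 0.32 for Lhx6 (2.10e-07), 4.93 ± 0.18 for Nkx2-1 (2.79e-09) and 3.94 ± 0.15 for Lhx8 (3.82e-09). For Gsx2 it was 2.80 ± 0.29 (1.58e-05). The median over all tested genes was 0.05. Without E13.5 spinal cord replicate 3 all 9 were still called, and the value that moved most was that of Lhx6, to 5.51.

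From the reads summed over each group, Dlx6os1 was 1401-fold higher in brain (95% exact binomial interval 600.2 to 4316), Dlx1 240.5-fold (138 to 466) and Dlx2 166-fold (64.5 to 609). These intervals cover counting error only, not the spread between libraries, and PCR copies of a molecule are counted separately. Lhx6 was 229-fold higher (98.1 to 707) and Nkx2-1 at least 227-fold higher, taking 3 reads over the group as the spinal cord floor. Both single-digit counts and this floor make the ratios depend on 1 library. Without E13.5 spinal cord replicate 3, which held 4 of the 5 Lhx6 reads, Lhx6 was 996-fold higher on the 1 read left (178.5 to 39370), and without replicate 2 it was 115-fold higher. Without replicate 1 Dlx6os1 was 2202-fold higher on 2 reads, and the bound for Nkx2-1 was 143-fold without replicate 1 and 114-fold without replicate 2, since fewer reads then stand behind it. These ratios with libraries left out were added after the data were seen. Gsx2 was 14.2-fold higher (9.04 to 23.4), with an interval below that of Dlx1, Dlx2, Lhx6 and Dlx6os1, also without E13.5 spinal cord replicate 3 (13.7-fold, 8.53 to 23.3).

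**Figure D3:**
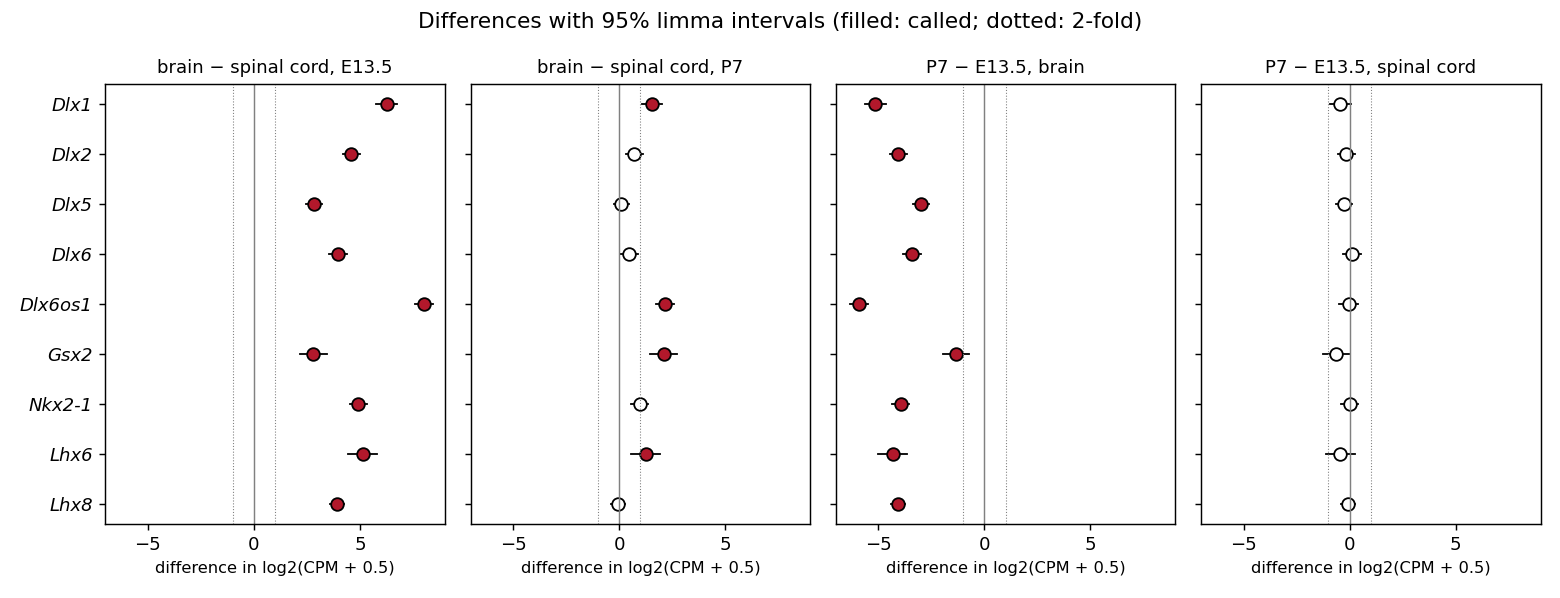
Differences in log2(CPM + 0.5) for the 9 genes between regions at each age and between ages in each region; points are limma estimates, lines 95% intervals, filled points pass the adjusted p and the 2-fold threshold (dotted). All 9 are filled for brain against spinal cord at E13.5 and for age in brain, 4 for region at P7 and 0 for age in spinal cord.

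Comparing the ages in brain asked which of these genes were lower in the older cells. All 9 were called lower at P7, against 16.7% of all tested genes called lower, and E13.5 and P7 brain libraries did not overlap for any member, as for 44.9% of all tested genes in this direction. As 6 of the 9 were kept by the filter only through E13.5 brain, the higher side of this comparison, these counts too carry no weight beyond the values. On the log2 scale, where the E13.5 level caps the size of a fall, the 2 largest falls were again in the Dlx group. The order was different by the shares of summed reads given below. Lhx8 kept at most 0.381% of its E13.5 level and Dlx5 1.28%, against 1.33% for Dlx6os1 and 2.09% for Dlx1. Dlx6os1 stood at 1.76, 1.92 and 2.43 CPM in P7 brain and fell by 5.90 ± 0.20 on the log2 scale (adjusted p = 4.28e-10 in limma). Dlx1 stood at 1.27, 0.89 and 1.74 CPM and fell by 5.14 ± 0.23 (2.50e-09).

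Dlx2, at 0.42, 0.40 and 0.32 CPM, fell by 4.05 ± 0.18. Dlx6, at 0.18, 0.17 and 0.50 CPM, fell by 3.40 ± 0.20, and Dlx5, with 5 reads left in the 3 libraries, fell by 2.98 ± 0.17. Adjusted p-values in limma for these 3 genes were between 3.17e-09 and 2.09e-08.

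Of the medial eminence factors, Lhx6 stood at 0.82, 0.76 and 0.55 CPM in P7 brain and fell by 4.32 ± 0.32 (limma, adjusted p = 1.67e-07). Nkx2-1 stood at 0.39, 0.66 and 0.42 CPM and fell by 3.95 ± 0.18 (4.00e-09). Lhx8 had no read in any of the 3 P7 brain libraries and fell by 4.05 ± 0.15 (8.05e-10). All P7 brain libraries therefore still held reads of Lhx6 and Nkx2-1, and none held reads of Lhx8.

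Gsx2 kept more of its level than the other members. It stood at 1.97, 2.65 and 1.56 CPM in P7 brain, below all 3 E13.5 libraries, and fell by 1.34 ± 0.29 on the log2 scale (limma, adjusted p = 0.00148). From summed reads, its P7 level was 32.2% of the E13.5 level (95% exact interval 27.1% to 38.3%). The other 8 members were all under 5%, from at most 0.381% for Lhx8, through 1.28% for Dlx5, 1.33% for Dlx6os1, 2.09% for Dlx1, 2.57% for Dlx2, 2.77% for Lhx6 and 3.22% for Nkx2-1, to 3.81% for Dlx6. The lowest and highest of these measured shares each rest on 1 library. Without P7 brain replicate 1, which held 4 of its 5 reads, Dlx5 was at 0.381%, and without replicate 3, which held 19 of its 30 reads, Dlx6 was at 2.23%, below Dlx2, Lhx6 and Nkx2-1 as measured in all libraries. The order among these 8 thus changed with the library left out. With each brain library left out in turn the 8 stayed under 5%, and Gsx2 lay between 25.8% and 39.6%. The 95% exact interval of Dlx6 in all libraries, 2.54% to 5.50%, reached past 5%. All shares use the deposited library sizes, which in P7 brain exceed TMM sizes by 0.18 to 0.22 on the log2 scale. They are lower than TMM sizes would give and were not rescaled. The median of the 9 was 2.57%, against 86.0% over 18287 tested genes with reads in E13.5 brain, of which 1.47% were under 5%, and the filter on low values bears on the median of the 9 as on their count.

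The relative levels of the members within each brain library also differed between the ages. Gsx2 had 0.054, 0.087 and 0.179 reads for each Dlx1 read in E13.5 brain, and 1.55, 2.96 and 0.894 in P7 brain. Dlx2 had 0.208 to 0.241 reads for each Dlx1 read at E13.5 and 0.182 to 0.444 at P7, ranges that overlapped. Dlx6os1 had 2.39 to 2.47 at E13.5 and 1.38 to 2.15 at P7, without overlap. These ratios were chosen after the values were seen, and with 3 libraries against 3 an exact two-sided permutation test cannot go below p = 0.1, the value reached for Gsx2, Dlx6 and Dlx6os1 (0.2 adjusted over 6 ratios).

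Other genes of the forebrain give the range against which these shares can be set. Among 11 dorsal and pan-forebrain factors the P7 level in brain ranged from 0.196% of the E13.5 level for Eomes, a factor of cortical intermediate progenitors, to 89.2% for Nr2e1, with a median of 17.0%. Lhx2, a factor of cortical progenitors, was at 43.3%, and 2 of the 11 were under 5%. Among 14 other subpallial factors the median was 8.59%, and 4 were under 5%. Gsx1, the paralog of Gsx2, was at 417% of its E13.5 level (343% to 512%). Gsx1 had 1.14, 2.06 and 2.36 CPM in E13.5 brain and 8.45, 8.0 and 6.76 CPM in P7 brain, a rise of 1.84 ± 0.23 on the log2 scale (limma, adjusted p = 1.76e-05), and was named after its values were seen.

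**Figure D4:**
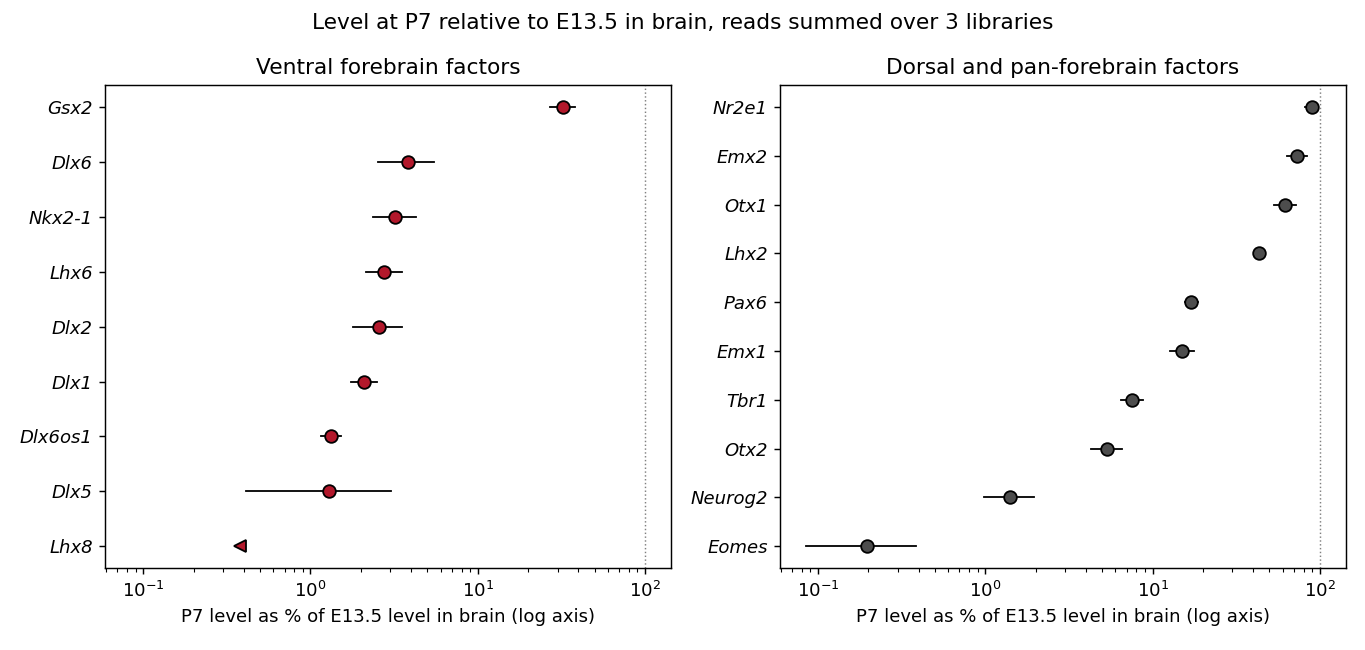
P7 level in brain as a percentage of the E13.5 level on a log axis, from reads summed over 3 libraries, for the 9 ventral genes and for 10 of the 11 dorsal and pan-forebrain factors; lines are 95% exact intervals for counting error and the triangle is an upper limit. Among the ventral genes Gsx2 lies at 32.2% and the others under 5%, whereas the comparison factors spread from 0.196% to 89.2%.

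The comparison of regions at P7 asked what was left of the regional difference. Gsx2, Dlx6os1, Dlx1 and Lhx6 were called higher in P7 brain, 4 of 9 members, where 2.27% of all tested genes were called in this direction. Brain and spinal cord libraries did not overlap for 7 of the 9, as for 12.3% of all tested genes. The exceptions were Dlx5 and Lhx8.

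Dlx6os1 had 0.054, 0.15 and 0 CPM in P7 spinal cord, and the difference was 2.15 ± 0.20 on the log2 scale (limma, adjusted p = 9.18e-06). Gsx2 had 0.11, 0.062 and 0.093 CPM in P7 spinal cord, a difference of 2.10 ± 0.29 (2.09e-04). Dlx1 had 0.16, 0.12 and 0.031 CPM, a difference of 1.55 ± 0.23 (3.17e-04). Lhx6 had a single read in P7 spinal cord, and its difference of 1.24 ± 0.32 (0.0111) was the smallest of the 4 on this scale. The scale understates differences from values near 0, and ratios of summed reads are given below.

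The other members had small differences on this scale. Their P7 brain means were under 0.5 CPM, from which a 2-fold difference cannot be reached on it. Nkx2-1, with 49 reads in P7 brain and none in spinal cord, had a difference of 0.98 ± 0.18 (95% interval 0.58 to 1.38, limma adjusted p = 0.00192), just under the 2-fold threshold. For Dlx2 it was 0.71 (0.30 to 1.11, adjusted p = 0.0126), for Dlx6 0.46 (0.03 to 0.88, 0.0975), for Dlx5 0.10 (-0.26 to 0.47, 0.689) and for Lhx8 -0.05 (-0.39 to 0.28, 0.831). Tests on the recovered reads (limma-voom, edgeR and DESeq2) and a pseudocount of 0.1 called Nkx2-1, Dlx2 and Dlx6 as well, which makes 7 of 9. Lhx6 lost its call with a pseudocount of 1 (0.76, adjusted p = 0.0348) and with P7 replicates 1 and 2 averaged (1.2, adjusted p = 0.101). From summed reads, brain exceeded spinal cord 29.9-fold for Dlx6os1 (14.3 to 75.2), 22.8-fold for Gsx2 (11.8 to 50.6), 12.3-fold for Dlx1 (6.68 to 25.3) and at least 16.4-fold for Nkx2-1. Without P7 spinal cord replicate 2 the ratio for Dlx6os1 was 71.2, on 2 spinal cord reads, and without replicate 1 the bound for Nkx2-1 was 10.4. Lhx6 had 71 reads in P7 brain against 1 in spinal cord. With any 1 other library left out it was 48.6- to 80.4-fold higher in brain (intervals from 8.45 to 3237 in all). Without P7 spinal cord replicate 1, which held that read, the bound was 15.1-fold.

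In spinal cord, no member was called between P7 and E13.5 by limma on log2(CPM + 0.5) (0 of 9), where 35.1% of all tested genes were called in either direction. At an unadjusted limma p under 0.05 there was 1, Gsx2, at -0.64 ± 0.29 (adjusted p = 0.0659). Differences of the other 8 ranged from -0.44 for Lhx6 to 0.12 for Dlx6. Gsx2 was called by limma-voom, edgeR and DESeq2 on the recovered reads, from 20 reads at E13.5 and 9 at P7, a P7 level between 8.02% and 46.0% of that at E13.5 by the 95% exact interval. DESeq2 also called Lhx6, Dlx5 and Dlx1, limma-voom also Dlx5, and a pseudocount of 0.1 called Gsx2 and Dlx1, all genes with at most 20 reads in the group. Without E13.5 spinal cord replicate 3 the difference was -0.06 for Lhx6, -0.28 for Dlx1, -0.09 for Dlx2, -0.12 for Lhx8 and -0.16 for Dlx6os1. No member was called without it either.

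The change of the region difference between the ages was tested as an interaction in the same limma fit. It fell for 8 of the 9 members, where 9.66% of tested genes fell. It contains the E13.5 brain level, through which the filter kept 6 of the 9, so this count carries no weight beyond the values either. For Nkx2-1, with no read in any spinal cord library, the change of -3.95 is its age difference in brain over again. The fall was 5.86 ± 0.28 on the log2 scale for Dlx6os1 (-5.86, adjusted p = 1.55e-07), and the other 7 lay between -4.71 for Dlx1 and -2.72 for Dlx5. For Gsx2 it was -0.70 ± 0.41 (95% interval -1.59 to 0.19, adjusted p = 0.193), and without E13.5 brain replicate 1, the library in which Gsx2 was lowest, it was -1.10 (adjusted p = 0.00962). On the recovered reads the estimate for Gsx2 had the opposite sign (0.68 by limma-voom, 0.81 by edgeR and 1.01 by DESeq2, adjusted p = 0.338 to 0.588). There edgeR and DESeq2 called 5 members, without Nkx2-1, Lhx6 and Dlx5, whose spinal cord counts were 0 to 5 reads, and limma-voom called 7, without Lhx6.

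Related genes did not all follow the members. For their counts, the shares of all tested genes called were 5.17% lower in brain at E13.5 and 4.35% lower in brain at P7. With age 11.0% rose in brain, 16.9% rose and 18.2% fell in spinal cord, and the region difference rose for 6.66%. Among 14 other subpallial transcription factors tested, 8 were called higher and 4 lower in E13.5 brain than in spinal cord (median 1.26). Sp9, a zinc-finger factor of the eminences, differed by 3.90 ± 0.19 (limma, adjusted p = 2.67e-08), and Vax1, a homeodomain factor of the ventral forebrain, by 2.75, whereas Zfp503 differed by -2.68. In brain 9 of the 14 fell with age, among them Isl1 (-4.89), a factor of striatal and motor neurons, Ebf1 (-4.24) and Sp9 (-3.80), and 2 rose. At P7, 1 gene of this list was called higher in brain and 3 were lower, with Nkx6-2, a factor of the oligodendrocyte lineage, at -3.93. In spinal cord 5 fell and 3 rose with age, and the region difference fell for 9 and rose for 1. With TMM rescaling 2 were higher and 3 lower in brain at P7, 3 rose and 9 fell in brain with age, and the region difference rose for 3 and fell for 9 (for 3 and 7 with median-ratio rescaling).

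Of 16 GABAergic interneuron genes, 4 were called higher and 1 lower in E13.5 brain (median 0.51), and the differences were smaller than those of the members. Npas1 differed by 2.07, Sox6 by 1.37, Calb2 by 1.2 and Maf by -1.11. Npas1 is an interneuron factor and Sox6 acts in both interneurons and OPCs. Gad2, an enzyme of GABA synthesis, had 53.6, 61.8 and 44.7 CPM in E13.5 brain and 34.4, 29.0 and 25.6 CPM in E13.5 spinal cord. In brain 5 fell with age, among them Npy (-3.92) and Gad2 (-3.85), and 3 rose, led by Npas1 (4.84). In spinal cord 7 fell and 5 rose. At P7, 4 were called higher in brain and 0 lower by limma (9 and 0 at an unadjusted p under 0.05), and the region difference rose for 3 and fell for 2. With TMM rescaling 4 rose and 4 fell in brain with age, and the region difference rose for 3 and fell for 1 (for 5 and 1 with median-ratio rescaling). Without E13.5 spinal cord replicate 3, an alternative added after the data were seen, 4 rose in spinal cord and the region difference rose for 2; no other count of the related lists changed, although single genes entered or left them.

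All 5 cholinergic genes were called lower in E13.5 brain than in spinal cord (median -2.14), where 5.17% of all tested genes were called lower, among them Gbx1 (-3.10), Slc18a3 (-2.14) and Chat (-1.70). Without E13.5 spinal cord replicate 3, in which Slc18a3 stood at 4.89 CPM against 1.01 and 1.56 CPM in the others, all 5 were still called, with a median of -1.69 and with Gbx1 at -3.25, Slc18a3 at -1.61 and Chat at -1.69. Chat makes acetylcholine and Slc18a3 loads it into vesicles. At P7 none of the 5 was called between regions by limma (0, with 1 lower in brain at an unadjusted p under 0.05; voom, edgeR and DESeq2 counts were not drawn up for this list), in brain 1 rose and 1 fell with age, and in spinal cord 4 fell and 1 rose. The region difference rose for 4 of the 5, and for 5 with TMM or median-ratio rescaling.

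All 11 dorsal and pan-forebrain factors were called higher in E13.5 brain (median 4.49), among them Eomes at 6.13. At P7 7 of the 11 were still called higher in brain (median 2.05), with Lhx2 at 4.39 and Nr2e1 at 4.25. The largest P7 difference among the ventral members was 2.15, but their low P7 brain levels cap it on this scale. Ratios of summed reads between regions are not given for the dorsal list, so the lists cannot be ranked. In brain 7 fell with age, or 6 with TMM or median-ratio rescaling, and the region difference fell for 7. In spinal cord 2 fell. Dlx1as alone of the 3 other Dlx genes was tested, differed by 5.72 between regions at E13.5, fell by 5.31 in brain with age, and was not called at P7 (0.38) or with age in spinal cord (0.03).

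Markers of other cells also differed between the groups. The summed level of 8 neuronal markers was 771 to 978 CPM in E13.5 brain, 781 to 966 in E13.5 spinal cord, 441 to 478 in P7 brain and 482 to 514 in P7 spinal cord, with all 8 present in every library. The sum overlapped between regions at E13.5 and was lower at P7, and in each region the mean was lower at P7 for 6 of the 8 markers and higher for 2. Tubb3, a tubulin of neurons, carried much of the fall in brain, from 284, 357 and 345 CPM to 40.8, 40.4 and 32.9 CPM. Snap25, a synaptic protein, was higher in P7 brain, at 41.3 to 44.0 CPM against 19.5 to 26.7 CPM. The sum of 6 OPC markers was 1204 to 2179 CPM in E13.5 brain, 606 to 1001 in E13.5 spinal cord, and 6635 to 8728 at P7. That of 6 pericyte and leptomeningeal markers was 2457 to 3527 in E13.5 brain, 5141 to 5588 in E13.5 spinal cord and 628 to 1265 at P7. The sum of 5 radial glia and astrocyte markers was 688 to 925 CPM in E13.5 brain, 568 to 676 in E13.5 spinal cord, 1054 to 1488 in P7 brain and 771 to 876 in P7 spinal cord. Microglial (4 genes), endothelial (3) and erythroid (4) markers summed to at most 69.0, 39.0 and 127 CPM in any library. The 3 choroid plexus markers were at 276 CPM in E13.5 brain replicate 1 and 494 in P7 brain replicate 3, against 14.7 to 59.2 in the other brain libraries, and at 149, 148 and 3.91 CPM in P7 spinal cord replicates 1, 2 and 3. The part of these cells in the members' levels was not tested.

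Across the 12 libraries, and among genes with a mean of at least 1 CPM in some group, clone and predicted-gene names aside, the genes whose log2 profile was most like the mean profile of the 9 members were Calb1, a calcium-binding protein of neurons (Pearson's r = 0.993), Ubl4b (0.992), Dlx1as (0.991), Fezf2, a factor of cortical projection neurons (0.991), and Tbr1, a factor of early cortical neurons (0.989), followed by Six3, Sp9 and Vax1 (0.987 to 0.989). These correlations describe a pattern carried by the 3 E13.5 brain libraries, which the genes share. Calb1 had a mean of 11.6 CPM in E13.5 brain and 0.63 to 1.49 CPM in the other groups.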

How the data were processed

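Stranded total RNA libraries were aligned by the authors with STAR 2.5.0a to mm10 and counted on GENCODE M8 with featureCounts 1.5.0-p1, with multi-mapping reads shared fractionally and sums rounded. The authors deposited 1 table of CPM over rescaled library sizes; in 3 columns the sum exceeds that of plain CPM, and these deposited values were recorded as a signal. Values were whole multiples of 1 read for 100% of entries (tolerance 0.01), so counts were recovered. No column was left out (0). Positions came from GENCODE M21.

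Groups and replicate numbers came from the sample titles. Limma 3.58.1 with an intensity trend, in place of the voom fit the study used, was run on log2(CPM + 0.5) for the 18319 genes that reached 0.7 CPM in 3 or more libraries, with 1 mean per group and 5 contrasts. A gene was called at a Benjamini-Hochberg adjusted p under 0.05 and more than 2-fold. Replicates are pools numbered in the titles, so p-values measure the spread between these pools. Alternatives included limma-voom, edgeR 4.0.16 and DESeq2 1.42.0 on recovered reads, other pseudocounts, filters and scalings, a replicate block and leaving out each library. Scripts were tested on simulated data. All 9 members were named, with up to 4 called genes of largest change for each other list; some genes that this rule covers are not reported here. Members and lists were chosen with earlier results of these data known. Python 3.11.15 and SciPy 1.17.1 gave the exact intervals and permutation tests.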

Additional observations from a re-analysis of the deposited data

Results flagged for a closer look

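For 8 genes the region difference itself differed between the ages, by the interaction term of limma on log2(CPM + 0.5). The change, P7 minus E13.5, was -5.86 for Dlx6os1, -4.71 for Dlx1, -3.99 for Lhx8, -3.95 for Nkx2-1, -3.89 for Dlx2, -3.88 for Lhx6, -3.52 for Dlx6 and -2.72 for Dlx5, with adjusted p-values from 1.55e-07 to 4.82e-05. For Nkx2-1, which had no spinal cord read, this is its age difference in brain. For the other genes, with spinal cord values mostly under 0.5 CPM, it largely repeats that difference and is no separate result. Tests on recovered reads did not keep the call for Nkx2-1, Lhx6 and Dlx5 (edgeR and DESeq2) or for Lhx6 (limma-voom).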

How the results depend on the processing

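The 9 calls for region at E13.5 and the 9 for age in brain were made under every alternative run. For region at P7, 4 members became 7 with a pseudocount of 0.1, limma-voom, edgeR or DESeq2, 5 with TMM or median-ratio rescaling, and 3 with a pseudocount of 1 or with P7 replicates 1 and 2 averaged; leaving out each library gave 4 to 5. For age in spinal cord, 0 became 2 with a pseudocount of 0.1, 2 with limma-voom, 1 with edgeR and 4 with DESeq2. For the change of the region difference, 8 became 5 with edgeR or DESeq2 and 7 with limma-voom; leaving out each library gave 8 to 9. The sign turned for Gsx2 in that change (0.68 with limma-voom, 0.81 with edgeR, 1.01 with DESeq2) and for Dlx6 with age in spinal cord (-0.075 with limma-voom). It also turned on leaving out single libraries with age in spinal cord for Dlx6os1 (-0.160 to 0.061) and Lhx8 (-0.116 to 0.054). The cause was not tested. Without the fold threshold, genes called over the whole table rose from 1595 to 5979 and from 1213 to 5491 (region at E13.5 and P7), from 5068 to 11227 and from 6436 to 12822 (age in brain and spinal cord), and from 2990 to 7290 (change). In the same order, edgeR on recovered reads called 2082, 1558, 6001, 7501 and 2970 genes. With the replicate number of the titles as a replicate block, member counts were 9, 4, 9, 0 and 8, as without it. The deviations of same-numbered brain and spinal cord libraries correlated at 0.314, 0.082 and 0.412 at E13.5 and at 0.013 to 0.044 at P7. Those of differently numbered libraries correlated at -0.436 to 0.203 at E13.5 and at -0.057 to 0.063 at P7. Whether a number marks a shared pool or batch is not stated, and the main fit did not take the numbers as pairs. With a replicate block within each age, the change for Gsx2 was -0.70 ± 0.39 (limma, adjusted p = 0.171). The deposited P7 brain library sizes exceed TMM sizes by 0.18 to 0.22 on the log2 scale; the median over all tested genes was -0.19 for P7 region and for age in brain, and -0.24 for the change. Depth limits what can be said of the spinal cord values, which rest on at most 20 reads a group, and of Dlx5 and Lhx8 in P7 brain, with 5 and 0 reads.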

Other observations

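Among the E13.5 brain libraries the coefficient of variation was 46.4% for Gsx2, 38.0% for Lhx6 and 10.8% to 27.9% for the other 7 members. Lhx8, Nkx2-1 and Dlx6, like Gsx2, were lowest in replicate 1. Gsx2 stood at 3.18, 6.85 and 9.01 CPM in replicates 1, 2 and 3, where Pdgfra stood at 529, 748 and 787 CPM and Olig2, a factor of the oligodendrocyte lineage, at 40.4, 98.2 and 91.5 CPM. Dlx1 stood at 59.2, 79.1 and 50.4 CPM in the same libraries. Between E13.5 and P7 in brain, Pdgfra rose to 2640 to 3402 CPM while Gsx2 stood at 1.56 to 2.65 CPM. In spinal cord, Gsx1 had 0.30, 0.58 and 0.17 CPM at E13.5 and 6.86, 5.98 and 5.99 CPM at P7, a rise of 3.02 ± 0.23 on the log2 scale (limma, adjusted p = 1.28e-07), while Gsx2 had 0.06 to 0.11 CPM at P7. At P7 Gsx1 did not differ between the regions past the threshold (0.28, adjusted p = 0.395).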
